A study of Mus musculus with 24 samples.

Results

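The genes described are 7 zinc finger transcription factors, Prdm8, Prdm12, Prdm13 and Prdm16 of the PR domain family and Sp5, Sp8 and Sp9 of the Sp family, out of 22889 entries in the table of expression values. Prdm8 and Sp8 were chosen because they were high in the spinal cultures of these same libraries, and the other 5 were added as relatives for contrast. Their difference between the cultures is therefore described without a test. PR domain proteins carry a domain related to the SET domain of histone methyltransferases followed by zinc fingers, and many of them repress their targets together with partner proteins. In the developing spinal cord several of them mark single progenitor domains or the neurons born there. Sp proteins bind GC-rich DNA through a conserved set of zinc fingers. Sp5 is a target and mediator of Wnt signaling in early embryos, while Sp8 and Sp9 act in limb buds and in the patterning of the nervous system.

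Mouse embryonic stem cells (mESCs) were differentiated as embryoid bodies into cultures rich in oculomotor or in spinal motor neurons, and each culture was sorted by FACS into a GFP-positive and a GFP-negative fraction. There were 6 libraries in each of the 4 groups, 24 in all, made by SMART-seq2, which amplifies poly(A) RNA without molecular identifiers. The oculomotor cultures came from an Islet1-GFP line with a Phox2a transgene (NesEPhox2a), whose nestin enhancer is active in neuronal progenitors, and received 250 nM SAG, an agonist of the hedgehog pathway, and 100 ng/ml FGF8 for 5 days. The spinal cultures came from an Hb9-GFP line, in which the reporter follows Mnx1, and received 500 nM SAG and 100 nM retinoic acid, also for 5 days. Cell line, reporter and patterning factors changed together, so their parts in a culture difference cannot be told apart. The GFP-negative fraction is a mixture of all cells without the reporter.

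Values are RPKM, reads scaled to the length of the gene model and to the mapped reads of the library, so that levels can be set side by side between genes. Depth was estimated at 752512 to 4642078 reads in libraries 1 to 4 of each group and at 4822354 to 7675720 in libraries 5 and 6. The sorts were checked with Isl1, which had a mean of 249 ± 77.8 RPKM (SD, n = 6) in oculomotor GFP-positive and 1.20 ± 0.405 in oculomotor GFP-negative libraries. Mnx1 had a mean of 97.7 ± 44.0 RPKM in spinal GFP-positive and 14.0 ± 27.2 in spinal GFP-negative libraries. Both spinal libraries of number 4 stood apart. In them Mnx1 was 43.1 RPKM in the GFP-positive and 69.4 RPKM in the GFP-negative fraction, Isl1 was 7.63 RPKM in the GFP-positive fraction against 50.4 to 122.9 RPKM in the other 5 spinal GFP-positive libraries, and the pluripotency gene Nanog was 156 RPKM in the GFP-positive and 185 RPKM in the GFP-negative fraction. In the spinal GFP-negative library 2, 68.8% of the summed RPKM lay in 3 gene models (Gm10800, Gm10801 and Gm21738).

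The DNA just before the start sites of Prdm8 and Sp8, which were both high in the spinal cultures, and of Prdm16, the member that differed between fractions, is shown to place these genes. The letters are 250 bases upstream of the RefSeq start (GRCm38.p6), 5′ to 3′ on the strand of the gene. Capitals mark an E-box (CANNTG), the site of basic helix-loop-helix factors, or a GC box (GGGCGG), the kind of site that Sp factors bind.
Prdm8: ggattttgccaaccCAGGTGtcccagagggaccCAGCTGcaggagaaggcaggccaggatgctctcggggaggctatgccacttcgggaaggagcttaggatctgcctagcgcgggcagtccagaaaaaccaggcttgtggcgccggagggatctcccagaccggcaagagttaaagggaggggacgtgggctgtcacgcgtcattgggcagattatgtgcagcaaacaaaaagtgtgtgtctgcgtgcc
Sp8: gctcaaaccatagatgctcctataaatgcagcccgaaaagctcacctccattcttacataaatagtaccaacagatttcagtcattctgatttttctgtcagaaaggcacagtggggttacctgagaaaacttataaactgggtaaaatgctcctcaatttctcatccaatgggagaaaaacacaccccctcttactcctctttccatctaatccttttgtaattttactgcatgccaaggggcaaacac
Prdm16: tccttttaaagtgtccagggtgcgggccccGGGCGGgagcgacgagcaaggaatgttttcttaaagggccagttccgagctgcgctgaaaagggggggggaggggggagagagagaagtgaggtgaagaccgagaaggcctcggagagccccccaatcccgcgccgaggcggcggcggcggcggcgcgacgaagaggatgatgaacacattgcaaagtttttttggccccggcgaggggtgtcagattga
The Prdm8 window lies on the plus strand at chr5:98180619-98180868, inside an intron of the longer GENCODE transcript, 13671 bases after the GENCODE start of the gene. It held 2 E-boxes, at positions -236 and -217 from the start. The Sp8 window, plus strand at chr12:118846079-118846328, ends at the GENCODE start of the gene and held none of the motifs searched. RefSeq gives Sp8 3 starts. The window of the second, 904 bases further along the gene, held a GC box at -14 and an E-box at -29. It also held AGGTCA, a short motif of nuclear receptors in general, at -120. The last of the 3 windows held an E-box at -84. Binding to any of these motifs was not tested. The Prdm16 window, minus strand at chr4:154636874-154637123, held 1 GC box at -220. Searched on both strands, the E-box was present in 66.2% of 32841 RefSeq windows of the same length, the GC box in 32.7% and AGGTCA in 14.0%, so that each match is a common one. All 7 genes had at least 1 window. GC content was 40.8% for the Sp8 window at the gene start, against a median of 52.4% over all windows, 59.6% for Prdm8 and 62.4% for Prdm16.

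By group means Prdm8 and Sp8 led their families in the spinal GFP-positive libraries. Both were chosen for a high spinal level, so nothing is read from these spinal ranks. Among 14 Prdm genes (Mecom counted with them), Prdm8 had the highest group mean in both spinal fractions, but ranked 7 in oculomotor GFP-positive and 11 in oculomotor GFP-negative libraries. Among 9 Sp genes, Sp8 ranked 1 in spinal GFP-positive and 2 in spinal GFP-negative libraries, after the widely expressed Sp3, and 5 and 4 in the oculomotor fractions. Sp3 had group means between 15.1 and 26.4 RPKM, and Prdm4, the highest Prdm gene of the oculomotor cultures, between 5.71 and 6.75 RPKM. The lead did not hold in every library. Sp8 was 12.4 and 3.43 RPKM in the spinal GFP-positive libraries 3 and 4, where Sp3 was at least 16.9 RPKM. Prdm8 was 0.409 and 2.87 RPKM in the spinal GFP-negative libraries 5 and 6, where Prdm4 was at least 3.07 RPKM.

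**Figure D1:**
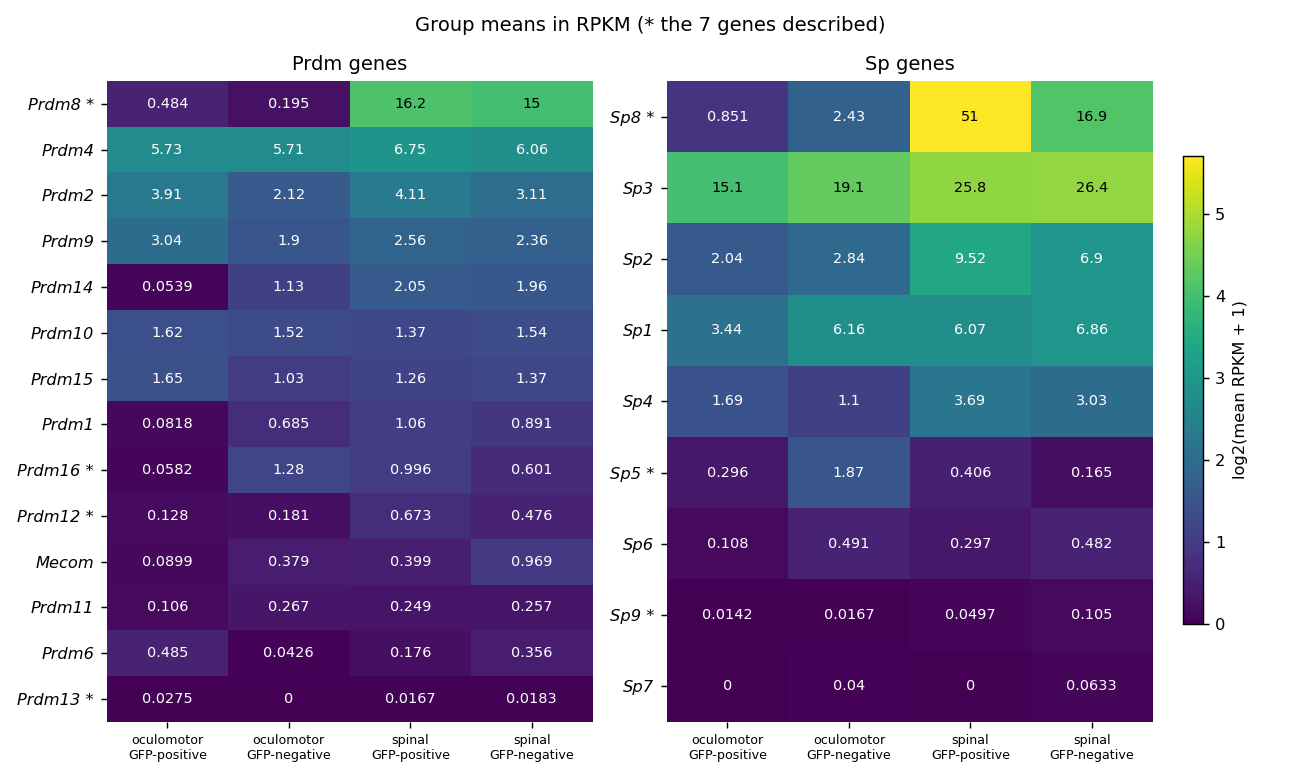
Mean RPKM of 14 Prdm genes (left) and 9 Sp genes (right) in the 4 groups of 6 libraries, printed in each cell and colored as log2(mean RPKM + 1), in order of the spinal GFP-positive mean. Prdm8 and Sp8 are highest in the spinal GFP-positive column, with 16.2 and 51.0 RPKM, while Prdm4 and Sp3 are highest in both oculomotor columns, and Sp3 also in the spinal GFP-negative one.

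Prdm8 is a transcriptional repressor that acts with the helix-loop-helix factor Bhlhe22 in forebrain neurons and is also found in the ventral spinal cord. In the spinal GFP-positive libraries its lowest, median and highest values were 2.88, 13.9 and 33.1 RPKM. In the spinal GFP-negative libraries they were 0.409, 14.4 and 33.7 RPKM. In the oculomotor cultures the highest value was 1.17 RPKM in the GFP-positive and 0.611 RPKM in the GFP-negative libraries. All 6 spinal GFP-positive libraries lay above all 6 oculomotor ones, and 5 of 6 did so in the GFP-negative fraction. The exception was the spinal GFP-negative library 5, with 14 reads. The means were 16.2 ± 12.7 RPKM (SD, n = 6) in spinal and 0.484 ± 0.443 RPKM in oculomotor GFP-positive libraries, a ratio of 33.4, and 14.97 ± 13.8 and 0.195 ± 0.216 RPKM in the GFP-negative fractions. On the log2(RPKM + 1) scale the spinal minus oculomotor difference was 3.16 ± 0.53 (SE) in GFP-positive and 3.01 ± 0.63 in GFP-negative libraries. Without both spinal libraries of number 4 it was 3.29 and 3.12, and without the spinal GFP-negative library 2 as well it was 2.80 in GFP-negative libraries. Of all genes, 0.696% of the 19240 compared had every spinal GFP-positive library above every oculomotor one, a share from which nothing is read for Prdm8, since it was chosen on this contrast.

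The level of Prdm8 in the spinal cultures differed more among cultures than between their fractions. Spinal cultures 1 to 3 had a mean of 27.1 ± 6.25 RPKM (SD, n = 3) in the GFP-positive and 27.0 ± 5.78 RPKM in the GFP-negative fraction. In cultures 5 and 6 the values were 2.88 and 5.64 RPKM in the GFP-positive and 0.409 and 2.87 RPKM in the GFP-negative fraction. Culture 4, which stood apart in its markers, had 7.12 and 5.52 RPKM. Cultures 5 and 6 were also the more deeply sequenced ones, so cultures and sets of libraries cannot be told apart here. The oculomotor means, on few reads, were also lower in libraries 5 and 6. They were 0.0931 against 0.679 RPKM in libraries 1 to 4 in the GFP-positive fraction, and 0.0641 against 0.260 RPKM in the GFP-negative one. The GFP-positive library was the higher one in 4 of 6 spinal pairs. Its change from the GFP-negative to the GFP-positive fraction, called the step here and not used to choose the gene, was 0.43 on the log2(RPKM + 1) scale (95% interval -0.88 to 1.74, limma adjusted p = 0.895), in a comparison that 1.23% of 22179 genes passed. It turned to -0.13 without the spinal GFP-negative library 5, was 0.70 without the spinal GFP-negative library 2, and was 0.08 in replicates 1 to 4. No enrichment of Prdm8 in the sorted spinal neurons was detectable, although the interval holds changes of more than 1 log2 unit in the upward direction. In the oculomotor cultures, where Prdm8 rested on 0 to 13 reads a library, the step was 0.28 (95% interval -1.03 to 1.59, adjusted p = 0.955).

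Sp8 acts beside Pax6 at the border of the motor neuron progenitor domain in the ventral spinal cord. Its lowest, median and highest values were 3.43, 43.1 and 136.5 RPKM in the spinal GFP-positive libraries. In the spinal GFP-negative libraries they were 3.89, 17.7 and 35.5 RPKM. The oculomotor libraries ran from 0 to 3.75 RPKM in the GFP-positive and from 0.942 to 4.69 RPKM in the GFP-negative fraction. Sp8 had 269 reads over the 6 oculomotor GFP-negative libraries, where Prdm8 had 14, and the ranges of the cultures overlapped in both fractions. In the GFP-positive fraction 5 of 6 spinal libraries lay above every oculomotor one, the exception being the spinal library 4. In the GFP-negative fraction 4 of 6 did so. The means were 51.0 ± 49.2 RPKM in spinal and 0.851 ± 1.44 RPKM in oculomotor GFP-positive libraries (SD, n = 6), a ratio of 59.9. The ratio was 188 without the oculomotor GFP-positive library 1 and 39.8 without the spinal GFP-positive library 6. In the GFP-negative fractions they were 16.9 ± 12.1 and 2.43 ± 1.63 RPKM, a ratio of 6.96. The spinal minus oculomotor difference was 4.31 ± 0.73 (SE) and 2.17 ± 0.66 on the log2(RPKM + 1) scale. Without both spinal libraries of number 4 these differences were 4.87 and 2.44, and without the spinal GFP-negative library 2 as well the latter was 2.16.

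Sp8 differed most between the fractions in spinal cultures 5 and 6. Their GFP-positive libraries had 61.1 and 136.5 RPKM, against 3.89 and 22.1 RPKM in the GFP-negative partners. This is 15.7 and 6.19 times as much. The GFP-positive library of culture 2 had 67.5 RPKM, more than that of culture 5. The summed pluripotency markers were also higher in the GFP-positive library of culture 5 (12447 against 350 RPKM) and of culture 6 (1135 against 396 RPKM). In cultures 1 and 2 the GFP-positive sum was the higher one too (723 against 122 and 490 against 116 RPKM). In cultures 3 and 4 it was the lower one (14.4 against 88.5 and 5414 against 6054 RPKM). By group means the sum was mostly 1 gene, Dppa5a, at 3239 RPKM in spinal GFP-positive and 1071 RPKM in spinal GFP-negative libraries. The part of these markers in the Sp8 values was not tested. In cultures 1 to 4 the GFP-positive library had between 0.777 and 1.90 times the Sp8 level of its partner. The spinal step was 1.15 on the log2(RPKM + 1) scale (95% interval -0.21 to 2.52, limma adjusted p = 0.584), with 4 of 6 pairs higher in the GFP-positive fraction. It was 0.17 in replicates 1 to 4, and 3.12 in the more deeply sequenced replicates 5 and 6, where the adjusted p was 0.106. In the oculomotor cultures Sp8 was lower in the GFP-positive library of all 6 pairs, and 5 of 6 GFP-positive libraries lay below every GFP-negative one. The oculomotor step of -0.99 did not pass the test (95% interval -2.36 to 0.38, adjusted p = 0.503), which 6.15% of all genes passed. In 2.48% of genes every GFP-positive library lay below every GFP-negative one, and Sp8 was not among them. How many genes had pairs like those of Sp8 was not counted. The difference between the spinal and the oculomotor step was 2.14 (95% interval 0.21 to 4.08), with an adjusted p of 0.607 and, with the pairs as a block, 0.117. It equals the GFP-positive minus the GFP-negative culture difference. Since Sp8 was chosen for its culture difference, nothing is read from this value.

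**Figure D2:**
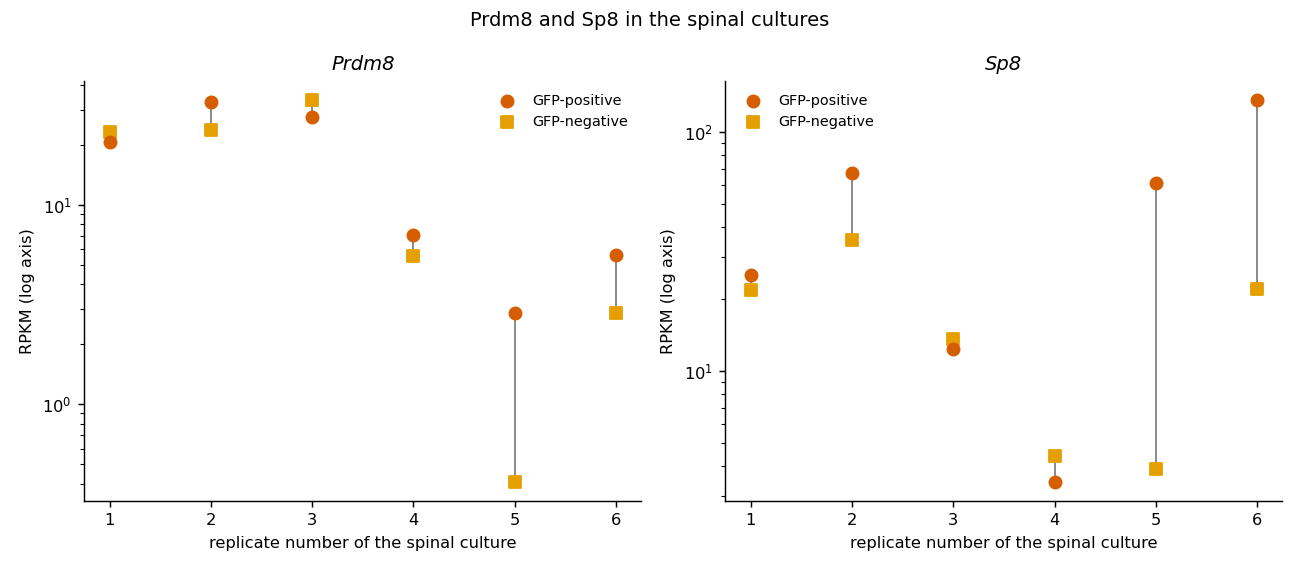
RPKM (log axis) of Prdm8 (left) and Sp8 (right) in the 6 spinal cultures, by replicate number, with the GFP-positive library as a circle and its GFP-negative partner as a square joined by a line. Prdm8 was near 20.7 to 33.7 RPKM in both fractions of cultures 1 to 3 and lower in cultures 4 to 6. Sp8 was far higher in the GFP-positive library than in its partner in cultures 5 and 6.

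Prdm8 and Sp8 therefore shared the culture but not the pattern within it. Over all 24 libraries the Pearson correlation of their log2(RPKM + 1) values was 0.72, and over the 12 spinal libraries it was 0.25. The first value includes the difference between the cultures for which both were chosen, and fractions of a culture are not independent points. The genes most like Prdm8 over the 24 libraries, among 11932 genes with a mean of at least 1 RPKM, were Hoxd3, Hoxb4, Hoxb6, Hoxd4 and Hoxb8, with r from 0.95 down to 0.93. All 5 are Hox genes, which give positional identity along the body axis, and had group means of at most 0.690 RPKM in the oculomotor fractions. Over the 12 spinal libraries alone their correlation with Prdm8 was between 0.85 and 0.90. The genes most like Sp8 were Pou3f3, a POU factor of neural progenitors and neurons, Rarb, a retinoic acid receptor that is itself induced by retinoic acid, Hoxb5, Hoxb7 and Tmem87a, with r from 0.86 down to 0.81. Within the spinal libraries these correlations fell to between 0.42 and 0.59. These libraries share the culture difference, depth and pairing, and no more than likeness of pattern is described.

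**Figure D3:**
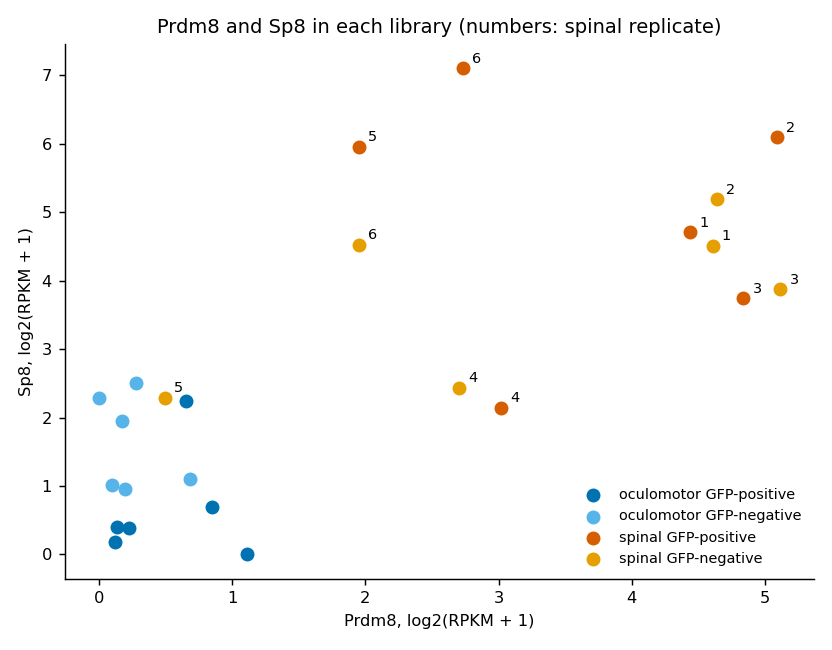
Prdm8 (horizontal) against Sp8 (vertical), both as log2(RPKM + 1), in the 24 libraries, colored by group, with the replicate number beside each spinal library. The oculomotor libraries lie at the lower left with the spinal GFP-negative library 5, the spinal cultures 1 to 3 have the highest Prdm8, the GFP-positive libraries of cultures 5 and 6 have high Sp8 with lower Prdm8, and both libraries of culture 4 have low Sp8 (3.43 and 4.41 RPKM) with Prdm8 at 7.12 and 5.52 RPKM.

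Prdm16, a PR domain protein that supports neural progenitors and stem cells, had another pattern. In the oculomotor GFP-negative libraries its lowest, median and highest values were 0.557, 1.36 and 1.97 RPKM. In the oculomotor GFP-positive libraries they were 0, 0.0355 and 0.171 RPKM. The fractions did not overlap, which held in this direction for 2.48% of genes, and all 6 pairs were lower in the GFP-positive library. The reads behind these values were 299 over the GFP-negative and 19 over the GFP-positive libraries. The means were 1.28 ± 0.579 and 0.0582 ± 0.0619 RPKM (SD, n = 6), a ratio of 22.1, or 36.0 without the oculomotor GFP-positive library 6, which held 11 of the 19 reads. On the log2(RPKM + 1) scale, which understates changes near 1 RPKM, Prdm16 fell by 1.07 ± 0.25 (SE, limma adjusted p = 0.00983). Of the 22179 genes tested, 6.15% passed this test and 2.34% passed it in the downward direction. Prdm16 passed in all 24 fits that left out 1 library, but not in replicates 1 to 4 alone (-0.95, adjusted p = 0.0934) or in replicates 5 and 6 alone (-1.32, adjusted p = 0.154).

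Markers of other cell types also differed between the oculomotor fractions. Of the 8 pluripotency markers, 6 were lower in the GFP-positive fraction, in a comparison that 2.34% of all genes passed downward. The summed level of the 8 was 0.315 to 268 RPKM in GFP-positive and 733 to 9900 RPKM in GFP-negative libraries. By group means this sum was mostly 1 gene, Dppa5a, at 74.2 and 5456 RPKM. The other pluripotency markers had means of at most 2.64 and 78.1 RPKM. Of 8 proliferation markers, 4 were lower (summed level 33.8 to 269 against 261 to 388 RPKM). Of 8 neural progenitor markers, 1 was lower, Sox2, with a log2 change of -2.97, and the summed levels overlapped (120 to 480 against 140 to 310 RPKM). Without both spinal libraries of number 4, which enter the shared estimate of the spread, 8 pluripotency and 6 proliferation markers passed. In that fit 1826 of 21837 genes passed in either direction. The part of these cells in the Prdm16 difference was not tested. In such bulk fractions fewer cells of a type and less RNA per cell cannot be told apart.

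In the spinal cultures Prdm16 did not follow the oculomotor pattern. The lowest, median and highest values were 0.459, 0.907 and 2.21 RPKM in the GFP-positive libraries. In the GFP-negative libraries they were 0, 0.198 and 2.09 RPKM. The GFP-positive library was higher in 5 of 6 pairs, the exception being culture 6, and the step was 0.39 on the log2 scale (95% interval -0.13 to 0.90, adjusted p = 0.652). Without both spinal libraries of number 4 the step was 0.46, and 0.41 without the spinal GFP-negative library 2 as well. The spinal step exceeded the oculomotor step by 1.46 ± 0.35 (SE, limma adjusted p = 0.0786). This difference passed the threshold with the pairs as a block (adjusted p = 0.0385) and without both spinal libraries of number 4 (1.53, adjusted p = 0.0454), but not without the spinal GFP-negative library 2 as well (1.48, adjusted p = 0.0692). It also passed without the spinal GFP-negative library 4 or 6 (adjusted p = 0.0326 and 0.0113). In the fit of all libraries without a block, 0.320% of genes passed this test.

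Between the GFP-positive fractions, all 6 spinal libraries were above all 6 oculomotor ones for Prdm16. This held in the same direction for 0.696% of the 19240 genes compared. The ratio of the means was 17.1, from 230 and 19 reads, and 28.0 without the oculomotor GFP-positive library 6. The log2 difference was 0.86 (95% interval 0.47 to 1.26, limma adjusted p = 0.0561), just outside the threshold that 0.603% of 19240 genes passed. Without the spinal GFP-positive library 2 or 3 the adjusted p was 0.0226 and 0.0363. In the GFP-negative fractions the direction was the opposite, with 4 of 6 spinal libraries below every oculomotor one and a difference of -0.59 (95% interval -1.11 to -0.08, adjusted p = 0.352), where 0.960% of genes passed. That comparison called 122 genes higher and 91 lower, but 197 and 64 after rescaling without the 3 gene models named above, and 97 and 155 after quantile normalization. The summed pluripotency markers, mostly Dppa5a, were 14.4 to 12447 RPKM in spinal GFP-positive libraries and 88.5 to 6054 RPKM in spinal GFP-negative ones. The part of these cells was not tested. None of the 5 members tested in the culture comparisons passed the threshold in either fraction.

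**Figure D4:**
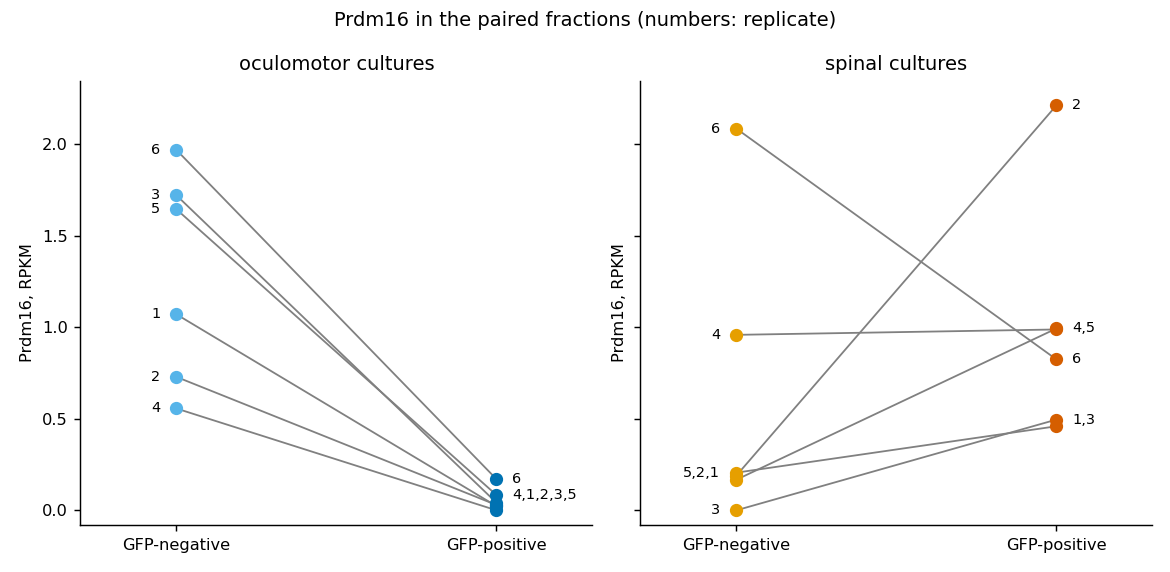
Prdm16 in RPKM in the GFP-negative and GFP-positive libraries of the 6 oculomotor (left) and 6 spinal (right) cultures, with lines joining the fractions of a culture and replicate numbers beside the points. All 6 oculomotor lines fall, from 0.557 to 1.97 RPKM down to at most 0.171 RPKM, and 5 of 6 spinal lines rise.

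Sp5, a Wnt target of early embryos, had its highest group mean in oculomotor GFP-negative libraries, where 3 of 6 had more than 3 reads, as in the spinal GFP-positive ones. In the oculomotor GFP-negative group the lowest, median and highest values were 0, 1.09 and 4.74 RPKM, with 48 and 56 reads in libraries 5 and 6. In oculomotor GFP-positive libraries only 1 value rested on more than 3 reads, 1.68 RPKM (9 reads) in library 3. In the spinal cultures it stayed at or below 0.9751 RPKM, on at most 10 reads. The oculomotor step of -0.88 (95% interval -1.66 to -0.10, limma adjusted p = 0.198) did not pass, and the pairs were split: -0.09 in replicates 1 to 4 and -2.46 in replicates 5 and 6 (adjusted p = 0.00603). The spinal minus oculomotor difference of -0.94 in the GFP-negative fraction had an adjusted p of 0.323.

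Prdm12, Prdm13 and Sp9 were at or near the limit of detection. Prdm12 specifies V1 interneurons from the p1 domain and acts in pain-sensing neurons. It was above 3 reads in 3 of 24 libraries, and the highest were both of spinal culture 4, with 4.04 RPKM (39 reads) in the GFP-positive and 2.38 RPKM (25 reads) in the GFP-negative fraction. The third was the oculomotor GFP-positive library 2, with 0.769 RPKM (7 reads). In the other 5 spinal GFP-positive libraries Prdm12 was at 0, where 3 reads would be at most 0.701 RPKM.

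Prdm13, which acts downstream of Ptf1a in dorsal interneurons, had 1 read in each of 2 libraries and 2 reads in another, and was at 0 in the other 21. Sp9, a close relative of Sp8 in the forebrain and limb, had at most 4 reads in any library and was above 0 in 11. Over all libraries, 3 reads would correspond to between 0.0914 and 0.932 RPKM for Prdm13 and between 0.0775 and 0.791 RPKM for Sp9, so lower levels of either gene were not detectable at this depth. No fold is given for these genes. For comparison, Sp8 exceeded 3 reads in 23 libraries, Prdm16 in 18, Prdm8 in 16 and Sp5 in 8.

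**Figure D5:**
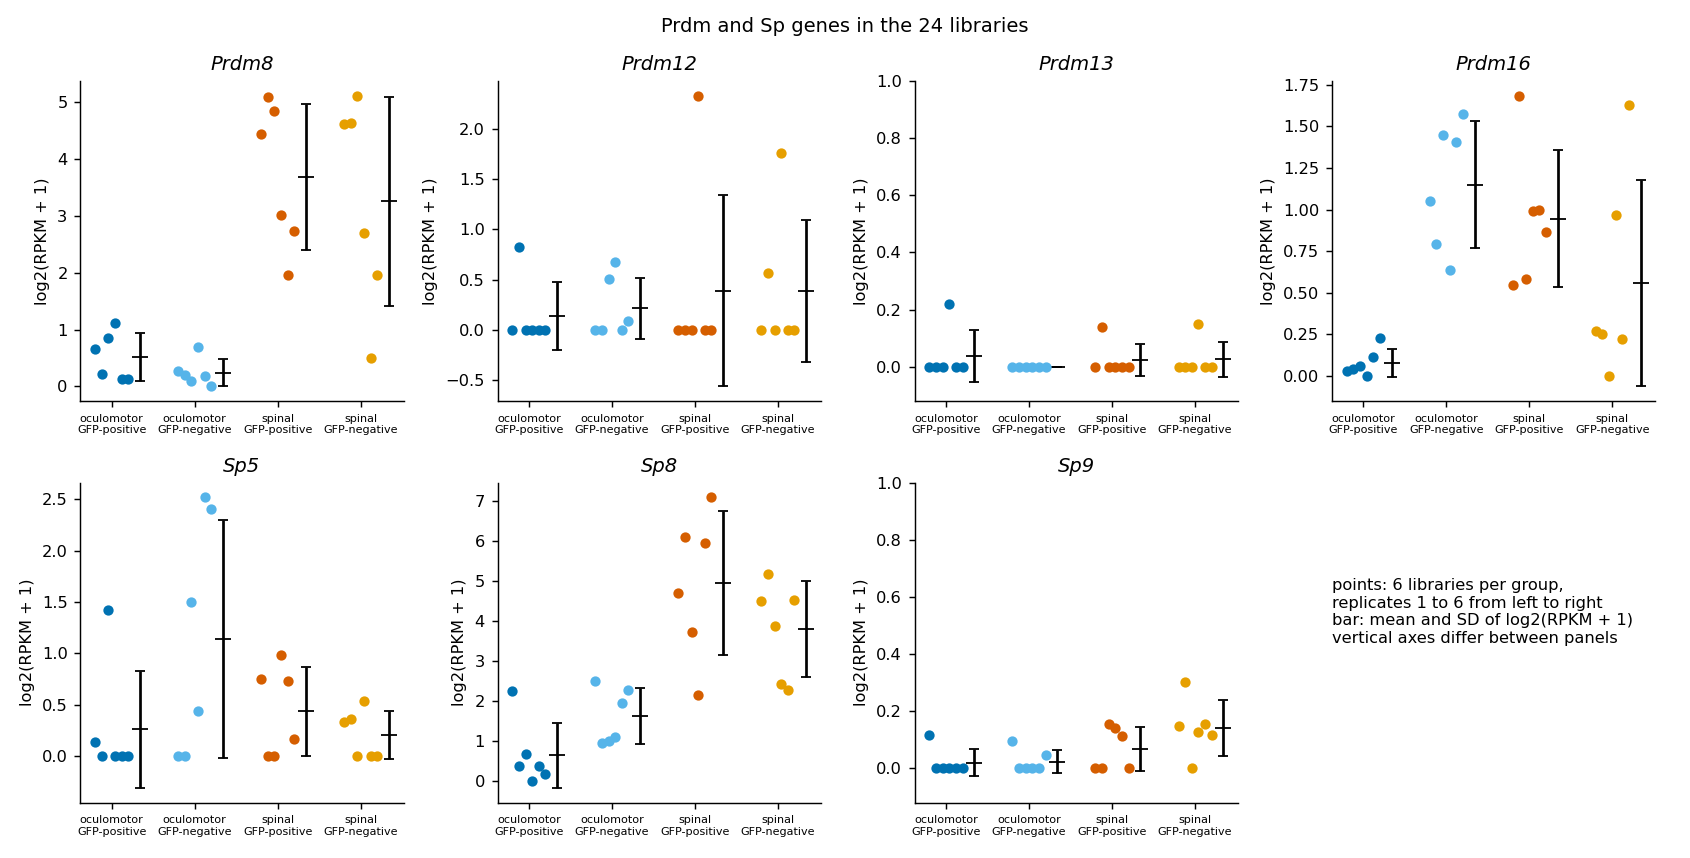
log2(RPKM + 1) of the 7 genes in each library, in 4 groups of 6, replicates 1 to 6 from left to right, with the mean and SD of each group as a bar, on vertical axes that differ between panels. Prdm8 and Sp8 are high in the spinal groups, Prdm16 is lowest in the oculomotor GFP-positive group, Prdm12 is highest in the 2 spinal libraries of number 4, and Prdm13 and Sp9 stay near 0.

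The partners and neighbours of these factors were measured in the same fits. Of 8 genes for Prdm partners, such as the methyltransferases Ehmt1 and Ehmt2 and the corepressors Ctbp1 and Ctbp2, only Bhlhe22 passed in any of the 5 comparisons. It rose in the oculomotor step, which 6.15% of all genes passed, from 0.399 ± 0.454 to 11.1 ± 8.93 RPKM (SD, n = 6), by 2.91 ± 0.45 on the log2 scale (limma adjusted p = 0.000201). In spinal GFP-positive libraries, where Prdm8 was high, Bhlhe22 had a mean of 2.50 ± 3.12 RPKM. None of 10 other Prdm genes and none of 6 other Sp genes passed in any comparison of all libraries. Without both spinal libraries of number 4, Prdm14, a factor of pluripotent cells, fell by 0.93 in the oculomotor step (limma adjusted p = 0.0204). Between the GFP-positive fractions the median log2 difference was 0.11 over the other Prdm genes and 0.73 over the 5 other Sp genes tested there, against 0.04 over all genes tested.

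Of 17 genes of the p1 domain and V1 interneurons, where Prdm12 normally acts, 2 passed between the GFP-positive fractions, where 16 were tested and 0.603% of all genes passed. Lhx1, a LIM factor of several spinal neuron types including motor neurons, was higher in spinal libraries, at 9.36 ± 6.98 against 0.0353 ± 0.0864 RPKM (log2 difference 3.12 ± 0.38, limma adjusted p = 0.00117). Nkx6-2, a progenitor factor, was lower, at 2.12 ± 0.997 against 26.6 ± 19.1 RPKM (log2 difference -2.89 ± 0.47, adjusted p = 0.0114). Lhx1 was the only one of the 17 to pass in the spinal step (1.23% of all genes) and in the difference between the steps (0.320%). It rose by 2.60 ± 0.36 in the spinal step (limma adjusted p = 0.000349), with a step larger than the oculomotor one by 2.55 ± 0.50 (adjusted p = 0.0214). The defining V1 gene En1 had a mean of 0.544 ± 0.527 RPKM in spinal GFP-positive libraries. In the GFP-negative fractions its spinal minus oculomotor difference of -2.33 had an adjusted p of 0.0734. Without both spinal libraries of number 4 it passed (-2.58, limma adjusted p = 0.0313), in a fit where 584 of 21837 genes passed. This difference is therefore not read as a result on V1 interneurons.

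Among the 10 measured genes of the dorsal network of Ptf1a and Prdm13 (8 tested between the GFP-positive fractions), and among 3 genes of the p0 domain (2 tested there), none passed in any comparison. Of 9 measured Wnt targets and caudal genes linked to Sp5 and Sp8, 1 passed, Lef1, a nuclear effector of Wnt signaling, in the GFP-negative fractions, where 0.960% of all genes passed. It was lower in spinal libraries, at 0.276 ± 0.434 against 2.11 ± 0.903 RPKM (log2 difference -1.29 ± 0.32, limma adjusted p = 0.0498). Of 6 genes of the motor neuron and p3 progenitor domains, Nkx6-1 was the only one to pass in the oculomotor step (6.15% of all genes), rising from 26.9 ± 29.3 to 222 ± 188 RPKM (log2 change 3.09 ± 0.83, adjusted p = 0.0249).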

How the data were processed

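Reads were aligned by the authors with HISAT2 2.0.3 (version from the submitters' processing notes) against mm10 (GRCm38), and RPKM were computed with rpkmforgenes. The deposited table holds these RPKM for 24 libraries and 22889 entries, with no read counts, and its gene annotation is not given in the sources used here. Positions are from GENCODE M21 and promoter windows from RefSeq, both on GRCm38.

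Members, lists and tests were chosen with earlier results of these data known. Of each list, the text names the genes that passed in the comparison described, up to 4 of largest change, and genes most like Prdm8 and Sp8 are the 5 of highest correlation. Prdm14 and En1 were named after their values without the spinal libraries of number 4 were seen. A related gene is not reported here and is left out of its list's counts and ranks.

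The tests used limma 3.58.1 under R 4.3.3 (lmFit, eBayes with trend) on log2(RPKM + 1) values of genes above 0 RPKM in at least 2 fitted libraries, with Benjamini-Hochberg adjustment over all genes tested and a two-sided threshold of 0.05. The GFP-positive fractions were compared in a fit of their 12 libraries, and the other comparisons in a fit of all 24 in 4 groups. The fits were tested on simulated data. A step is GFP-positive minus GFP-negative, and a difference between cultures is spinal minus oculomotor. Group values are mean ± SD. No label says whether numbered libraries came from separate differentiations, so p-values measure the spread between these libraries.

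The depth of each library is an estimate from the size of 1 read in 5911 genes with 1 transcript. For the 7 genes, the length was chosen that made most low values (under 15 reads) whole within 0.05 of a read. All low values were then whole, which the choice favours, and for Prdm13 it rests on 3 values only. A floor of 3 reads covers counting error only, and no fold is given where both groups' medians were at or under it.

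GFP-positive and GFP-negative libraries of the same culture and number were taken as pairs, since their deviations from the group means correlated in all 12 pairs (0.379 to 0.728 in oculomotor and 0.421 to 0.661 in spinal cultures, 11952 genes). The fits carry no block, and a block for the pairs was an alternative. Figures were drawn with Python 3.11.15 and matplotlib 3.10.9.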

Additional observations from a re-analysis of the deposited data

Results flagged for a closer look

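In 11 of the 28 sets of 6 libraries checked (7 genes in 4 groups), 1 library lay far from the other 5 relative to the range, by Dixon's test. The test flags about 1 set in 20 by chance when values follow a normal distribution, and more where most values are 0.

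Prdm12 stood out in 3 groups. It was 4.04 RPKM (39 reads) in the spinal GFP-positive library 4, where the other 5 were at 0, and 2.38 RPKM (25 reads) in its GFP-negative partner, where the next was 0.478 RPKM. In the oculomotor GFP-positive library 2 it was 0.769 RPKM (7 reads), with the other 5 at 0. Prdm16 was 2.21 RPKM (48 reads) in the spinal GFP-positive library 2, against 0.994 RPKM in the next library.

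Sp8 was 3.75 RPKM (78 reads) in the oculomotor GFP-positive library 1, against 0.611 RPKM in the next, while its GFP-negative partner had 4.69 RPKM. Sp5 was 1.68 RPKM (9 reads) in the oculomotor GFP-positive library 3, against 0.103 RPKM in the next. Prdm8 was 0.611 RPKM in the oculomotor GFP-negative library 4, a value that rests on 4 reads.

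The remaining 4 rest on 1 or 2 reads each. Prdm13 was 0.165 RPKM in the oculomotor GFP-positive library 4, 0.1005 RPKM in the spinal GFP-positive library 2 and 0.110 RPKM in the spinal GFP-negative library 4, and Sp9 was 0.0854 RPKM in the oculomotor GFP-positive library 1. The other libraries of these groups were at 0.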

How the results depend on the processing

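Most counts of genes passing moved by over 1.5 times under some settings, while few calls on the 7 genes did. The cause was not tested except where the setting itself removes libraries.

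The GFP-positive culture difference passed for 116 genes, and for 229 with an offset of 0.1 RPKM, 198 among genes above 1 RPKM in at least 2 libraries, 260 with sample quality weights, 73 with the replicate number as a block, 30 in replicates 1 to 4, 13 in replicates 5 and 6 and 342 in a fit of all 24 libraries. Without 1 library the count was 67 to 181, moving by over 1.5 times without the oculomotor GFP-positive library 2 or 6 or the spinal GFP-positive library 3. The GFP-negative culture difference passed for 213, and for 650 with weights, 563 with the block and 39 in replicates 1 to 4. It passed for 115 to 444 without 1 library, and moved as much without the oculomotor GFP-negative library 2, 4 or 6 or the spinal GFP-negative library 4 or 6. The oculomotor step passed for 1364, and for 3795 with weights, 3644 with the pairs as a block, 476 in replicates 1 to 4, 884 in replicates 5 and 6 and 2388 with that culture alone. Without 1 library it was 1017 to 1558. The spinal step passed for 272, and for 484 with weights, 649 with the block, 1 in replicates 1 to 4 (0 with a block as well, where limma gave an unadjusted p under 0.05 for 2711) and 4 with that culture alone. Without 1 library it was 186 to 634, the highest without the spinal GFP-positive library 4. The interaction passed for 71, and for 240 with weights, 453 with the block, 10 in replicates 1 to 4 and 41 to 234 without 1 library, moving as much without the oculomotor GFP-positive library 2, the spinal GFP-positive library 3 or 5, or the spinal GFP-negative library 1 or 4.

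In settings chosen after seeing the data, leaving out both spinal libraries of number 4 gave 584 for the GFP-negative culture difference, 633 for the spinal step and 228 for the interaction. Leaving out the spinal GFP-negative library 2 as well gave 573, 649 and 270.

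The Prdm16 oculomotor step kept its direction in all 37 alternatives and passed in 35. The 2 exceptions were replicates 1 to 4 (-0.95) and replicates 5 and 6 (-1.32), which have fewer libraries. Leaving out 1 library gave -1.17 to -0.99. The Prdm16 interaction passed in 6 of 36 alternatives: with an offset of 0.1 (4.30, adjusted p = 0.0321), with weights (1.45, adjusted p = 0.0178), with the pairs as a block (1.46, adjusted p = 0.0385), without both spinal libraries of number 4 (1.53) and in 2 of 24 fits without 1 library (1.31 to 1.67, adjusted p 0.0113 to 0.160). The Prdm16 difference between the GFP-positive fractions passed in 4 of 22, with an offset of 0.1 (2.70, adjusted p = 0.0320), with weights (0.78, adjusted p = 0.0250) and in 2 of 12 fits without 1 library (0.72 to 0.94, adjusted p 0.0226 to 0.149). In the GFP-negative fractions it did not pass in any of 35 (-0.81 to -0.48 without 1 library).

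Prdm8 and Sp8 did not pass a fraction step or the interaction in any alternative. The interaction is built from the culture differences for which both were chosen, so nothing is read from it for them. The Prdm8 spinal step ran from -0.13 (without the spinal GFP-negative library 5) to 0.80 without 1 library. The Prdm8 interaction of 0.15 turned to -0.22 with an offset of 0.1, -0.018 with quantile normalization and -0.32 in replicates 1 to 4, with or without the block. Without 1 library it ran from -0.40 to 0.52, turning to -0.00375, -0.13 and -0.08 without the spinal GFP-positive libraries 1, 2 and 3 and to -0.40 and -0.11 without the spinal GFP-negative libraries 5 and 6. The Sp8 spinal step ran from 0.73 to 1.72 and its interaction from 1.72 to 2.71. For Sp5 the oculomotor step (-2.46), the GFP-negative culture difference (-2.46) and the interaction (2.91) passed only in replicates 5 and 6. The Prdm8 culture difference was 4.70 in GFP-positive and 4.92 in GFP-negative libraries with an offset of 0.1, and 1.14 in the GFP-negative libraries of replicates 5 and 6. That of Sp8 in GFP-positive libraries was 5.97 with that offset and 6.24 in replicates 5 and 6.

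The block for pairs of fractions changed no other call on the 7 genes. Across cultures the numbers did not pair the libraries: same-numbered libraries correlated at over 0.1 in 8 of 12 cases (-0.17 to 0.71), and 3 of 12 correlated best with their own number. The 2 count-based tests planned were not run, since the table holds no counts. Depth limits Prdm12, Prdm13, Sp5 and Sp9, whose values rest on few reads.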
